A study of Rattus norvegicus with 18 samples.

Results

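The genes described here are markers of the oligodendrocyte lineage, from precursor cells to myelinating cells. Members were found by symbol, with letter case ignored, from a list of 32 genes. Of these, 31 have a row among the 34873 genes of the count table, and all 31 had enough counts to be tested. Their lowest count in any library was 42. The remaining gene, Trf, has no row under that name, and the RefSeq rat annotation gives Trf as another name of Tf, the transferrin gene, whose values are set beside the others below without being counted.

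RNA-seq counts came from rat brain, with 6 libraries in each of 3 groups. NC rats were wild-type and carry no treatment in the labels. CO rats were wild-type and inhaled carbon monoxide (CO), which the design text gives as 1000 ppm for 40 min followed by 3000 ppm for 20 min, with more than 60% of hemoglobin bound by CO. CLCF1 rats inhaled CO too and have a genotype label of knock-down for Clcf1, whose product is a secreted cytokine of the ciliary neurotrophic factor receptor. The design text describes lentivirus that lowers or raises Clcf1 in macrophages grown from bone marrow, which were injected after the rats' own macrophages had been removed with liposomes. Whether the NC and CO rats also had depletion and injected cells is not said, so CLCF1 and CO rats may differ by more than the knock-down. Neither the brain region nor the time after exposure is in the labels. Nor do they tie libraries to separate animals, so that every p-value below reflects the spread among libraries, which may be technical.

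Oligodendrocytes wrap axons in myelin, a stack of membrane rich in galactolipids and in a few abundant proteins. They arise from dividing precursor cells that carry the platelet-derived growth factor receptor Pdgfra and the proteoglycan Cspg4, and the transcription factors Olig1, Olig2, Sox10 and Myrf lead these cells through differentiation. White matter is a known site of injury after CO poisoning, in which loss of myelin can appear late.

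Total counts ran from 15.1 to 20.3 M per library. Clcf1 had 1 to 7 counts in the NC libraries, 80 to 118 in the CO libraries and 0 to 3 in the CLCF1 libraries. Libraries 3 to 6 of each group stood apart from libraries 1 and 2. A gene was at 0 in both libraries 1 and 2 of its group 42660 times over the 3 groups, and libraries 3 to 6 of that group held a count for it 0 times, whereas libraries 1 and 2 of another group held one for 5.22% of these genes on average. Of the 124 values of the members in libraries 3 to 6 of a group, 62.9% in NC, 54.8% in CO and 41.9% in CLCF1 lay between those of libraries 1 and 2. The same share over all genes was not computed. Whether libraries 3 to 6 are independent of libraries 1 and 2 is not known from these data, and if they are not, the SEs and adjusted p-values with n = 6 may be too small. Counts of calls, medians and the members that passed are therefore also given for libraries 1 and 2 alone.

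In CLCF1 against CO, 8 of 31 genes fell and 0 rose, by the quasi-likelihood test of edgeR at a Benjamini-Hochberg adjusted p of 0.05. Among all 16581 genes tested, 8.34% fell and 8.63% rose in that comparison. The genes that fell were the myelin membrane genes Mag, Hapln2 and Cldn11, the lipid enzyme gene Fa2h, the transcription factor genes Olig1, Olig2 and Myrf, and the protease gene Adamts4. The median log2 fold change over the 31 genes was -0.45, against 0.00 over all genes tested, and 29 of 31 values were below zero, while 23 of 31 genes did not pass and Enpp2 (0.75) and Nkx2-2 (0.18) had positive values. With libraries 1 and 2 alone the median was -0.39 and 0 of 31 genes passed by edgeR. Precursor genes did not pass the test. Because these are counts from whole tissue, fewer cells of the lineage and less RNA per cell cannot be told apart.

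**Figure D1:**
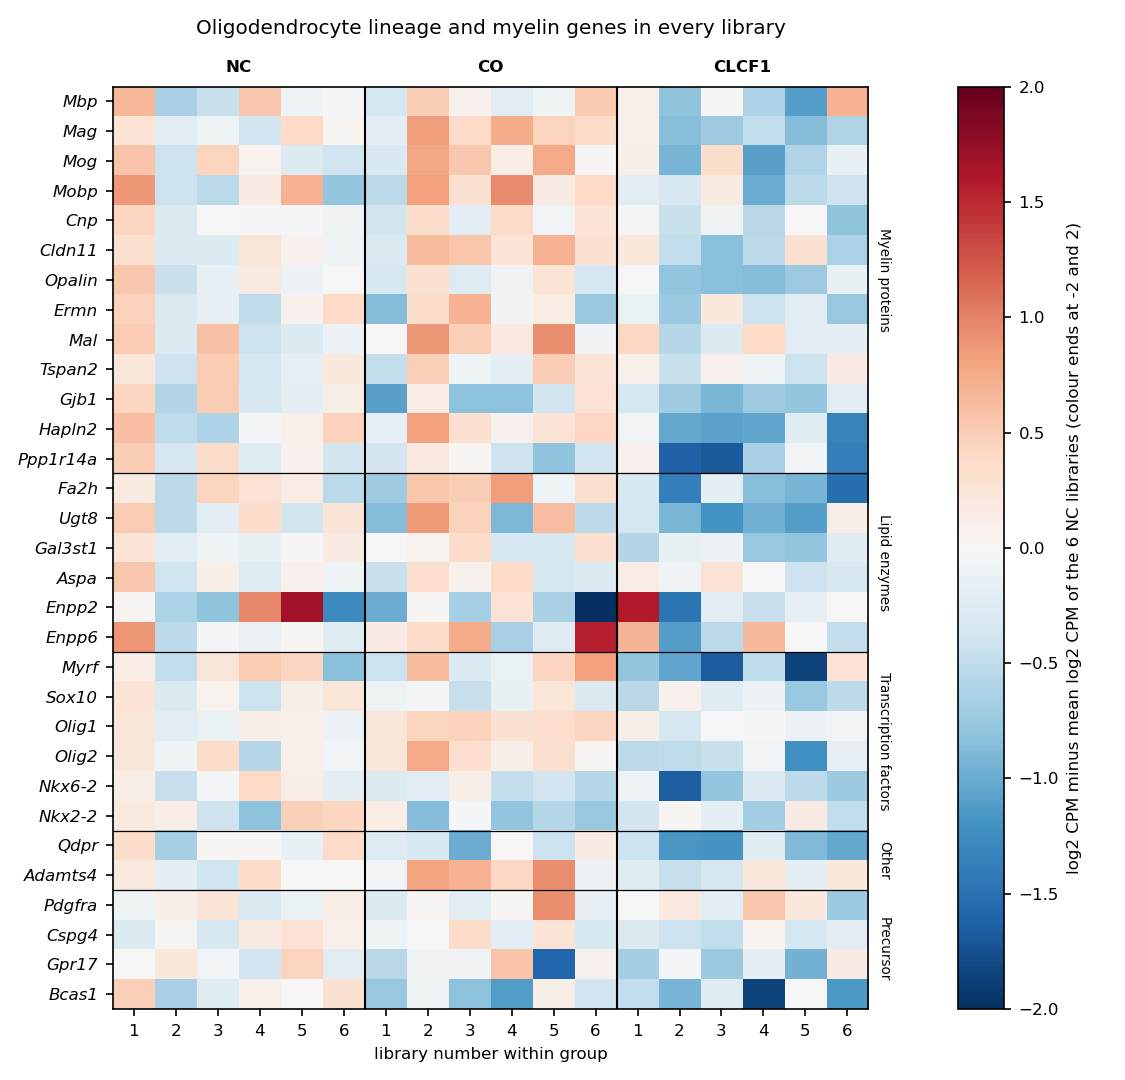
Each square is 1 gene in 1 library, coloured by its log2 CPM (its count scaled to a common library size) minus the mean of the 6 NC libraries, with genes grouped by role and libraries by group. Blue squares, below the NC mean, are most frequent in the CLCF1 libraries. Within NC, most genes lie above that mean in library 1 and below it in library 2.

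The stretches of sequence before the start sites of 4 of the genes that fell are shown because each holds a 7-letter motif of Myrf. Myrf is a factor that binds near myelin genes, and whether it acted on these 4 genes here was not tested. A RefSeq promoter window was matched for 24 of the 32 symbols, giving 25 windows. The letters searched were CTGGCAC and CTGGTAC on both strands, in the 250 bases before each start. They occurred in 7 of 25 windows of the members (28%), those of Mag, Opalin, Cldn11, Hapln2, Mal, Cnp and Olig2, and in 5.48% of the 33469 windows of all genes. Of the 6 windows that belong to genes that fell in CLCF1 against CO, 4 held the letters. The windows of Opalin, Mal and Cnp held them as well, although these genes did not pass. The share among the windows of all genes that fell was not computed. The count table gives other coordinates from a build it does not name, with Mag at chr1:89345429-89360733, Hapln2 at chr2:187396349-187401786, Cldn11 at chr2:115823538-115836846, Olig1 at chr11:31428358-31430517 and Olig2 at chr11:31389514-31392890. Windows run 5′ to 3′ along the gene's own strand in the RefSeq build GRCr8, and capitals mark the motif on either strand. The Mag window is chr1:95291045-95291294 on the minus strand, with the motif starting at -94 from the start site. The Hapln2 window is chr2:175794439-175794688 on the minus strand, with the motif at -197. The Cldn11 window is chr2:114149540-114149789 on the minus strand, with the motif at -120. The Olig2 window is chr11:43961335-43961584 on the plus strand, with the motif at -34.
Mag: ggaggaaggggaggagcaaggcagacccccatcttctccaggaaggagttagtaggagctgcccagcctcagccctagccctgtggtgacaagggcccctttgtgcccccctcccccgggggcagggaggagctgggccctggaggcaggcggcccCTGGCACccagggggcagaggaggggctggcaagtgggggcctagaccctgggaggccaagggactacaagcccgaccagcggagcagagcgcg
Hapln2: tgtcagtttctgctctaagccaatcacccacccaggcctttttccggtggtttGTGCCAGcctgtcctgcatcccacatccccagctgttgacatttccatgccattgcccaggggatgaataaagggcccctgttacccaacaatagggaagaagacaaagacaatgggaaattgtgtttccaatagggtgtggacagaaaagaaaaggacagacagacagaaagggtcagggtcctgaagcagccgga
Cldn11: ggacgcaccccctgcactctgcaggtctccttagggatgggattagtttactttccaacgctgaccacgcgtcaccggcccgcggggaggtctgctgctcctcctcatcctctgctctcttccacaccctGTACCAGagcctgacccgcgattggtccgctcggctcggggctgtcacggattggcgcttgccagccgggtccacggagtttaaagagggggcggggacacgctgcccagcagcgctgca
Olig2: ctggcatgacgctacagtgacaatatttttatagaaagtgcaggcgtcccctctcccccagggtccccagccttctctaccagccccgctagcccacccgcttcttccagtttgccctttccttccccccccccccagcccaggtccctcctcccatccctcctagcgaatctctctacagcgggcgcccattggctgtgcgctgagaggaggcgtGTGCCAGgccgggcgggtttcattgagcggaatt

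Letters for other factors of the lineage were counted in the same windows. The E-box letters CAGATG and CAGCTG, of the kind that Olig proteins bind, occurred in 7 of 25 windows of the members (28%) and in 24.3% of all windows. The letters ACAAAG, of the kind that Sox proteins bind, occurred in 8 of 25 windows (32%) and in 16.3% of all windows. Of the 6 windows of genes that fell in CLCF1 against CO, 2 held the E-box letters and 3 held ACAAAG. A match describes letters in a window and is not evidence of binding.

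Levels of the genes are compared as CPM per kilobase of gene length, taken from the table. In the NC libraries Mbp, the basic protein that holds the inner faces of the myelin membrane together, stood first at 2416 ± 878 CPM per kilobase (SD, n = 6). Cnp, a cyclic nucleotide phosphodiesterase of the cytoplasmic channels of myelin, came next at 357 ± 62.3. Qdpr, Cldn11, Mobp, Mal and Bcas1 followed between 225 and 114. The lowest were Adamts4 at 5.11, Nkx2-2 at 3.72, Enpp6 at 3.43 and Cspg4 at 2.90. Neighbours in this order mostly could not be separated, since 27 of 30 neighbouring pairs had overlapping NC ranges and the exceptions were Mbp and Cnp, Cnp and Qdpr, and Gal3st1 and Adamts4. The 31 genes together made up 0.747% to 1.84% of a library's counts, and Mbp alone 0.368% to 1.26%.

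Among the 13 genes of myelin membrane and structure, 3 fell in CLCF1 against CO and all 13 log2 fold changes were below zero (median -0.48). Mag encodes a sialic acid-binding adhesion protein at the inner face of the sheath toward the axon. Its CPM had a lowest, median and highest value of 149, 193 and 261 in NC, 172, 264 and 352 in CO, and 108, 125 and 212 in CLCF1 libraries. The CO and CLCF1 ranges overlapped only where CLCF1 library 1 (212) lay above CO library 1 (172). The means of 273 ± 63.8 and 137 ± 38.9 CPM (SD, n = 6 each) gave a log2 fold change of -0.999 ± 0.189 (SE, adjusted p = 0.00234).

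Hapln2 encodes a link protein that joins hyaluronan to proteoglycans at nodes of Ranvier. Its lowest, median and highest CPM were 31.7, 43.6 and 62.8 in CO and 14.0, 17.4 and 34.0 in CLCF1 libraries, with 1 CLCF1 library above the lowest CO library. It fell by 1.04 ± 0.25 on the log2 scale, from 44.5 ± 10.6 to 21.6 ± 8.23 CPM (adjusted p = 0.00834). Cldn11, the claudin of the tight junctions between myelin layers, ran from 331 through 548 to 656 CPM in CO and from 227 through 282 to 498 in CLCF1 libraries. CLCF1 libraries 1 and 5, at 469 and 498 CPM, lay within the CO range and the other 4 CLCF1 libraries lay below it. Cldn11 fell by 0.66 ± 0.20 (adjusted p = 0.0292), from 533 ± 120 to 336 ± 116 CPM. That call was lost when CO library 2, 3 or 5 or CLCF1 library 2, 3, 4 or 6 was left out, with adjusted p from 0.0526 to 0.0640.

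The other 10 structural genes did not pass in CLCF1 against CO. Mobp, a basic protein of compact myelin, had -0.77 ± 0.29 (adjusted p = 0.0706), from 753 ± 251 to 443 ± 118 CPM. Mog, an immunoglobulin-like protein of the outer myelin surface, had -0.66 ± 0.26 (adjusted p = 0.0854), from 163 ± 47.5 to 103 ± 40.6 CPM. Opalin, a membrane glycoprotein of central myelin, had -0.48 ± 0.19 (adjusted p = 0.0872). The most abundant genes showed smaller differences. Cnp was at 862 ± 185 CPM in CO and 665 ± 146 in CLCF1 libraries (-0.37 ± 0.16, adjusted p = 0.123).

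Mbp was at 8348 ± 2134 CPM in CO and 6930 ± 3324 in CLCF1 libraries (-0.27 ± 0.28, adjusted p = 0.554). Its lowest, median and highest CPM were 6056, 7730 and 11062 in CO and 3610, 6411 and 12526 in CLCF1 libraries. The highest Mbp value of all 18 libraries was thus in CLCF1 library 6, the library with the lowest Cnp value of all, 465 CPM. The remaining structural genes were Mal (-0.48), a proteolipid of lipid rafts, Ppp1r14a (-0.45), an inhibitor of myosin phosphatase, and Ermn (-0.33), a cytoskeletal protein, and their adjusted p ran from 0.154 to 0.379. Gjb1, a gap junction connexin, had -0.24 and Tspan2, a tetraspanin, had -0.21, with adjusted p of 0.530 and 0.486.

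**Figure D2:**
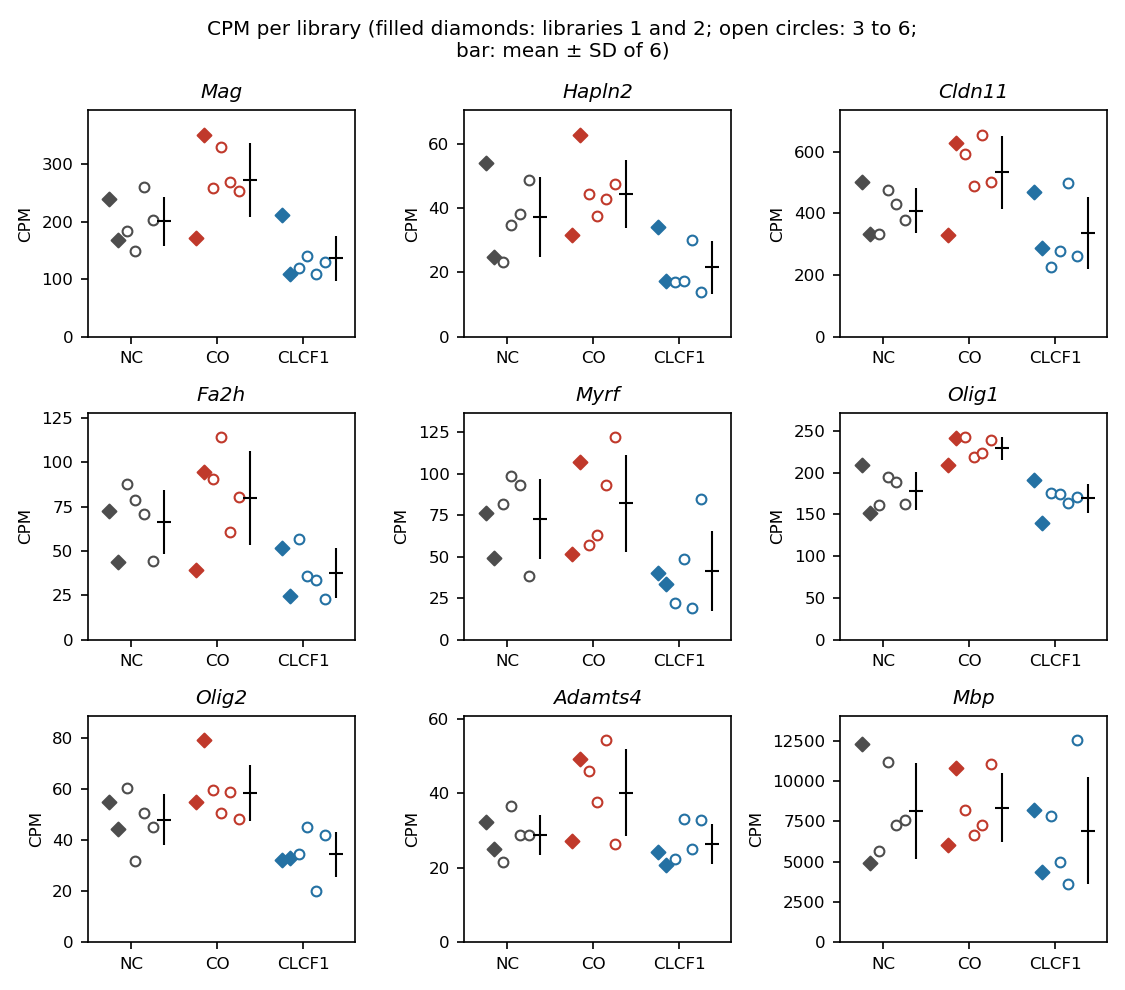
Each panel shows the CPM of 1 gene in every library of NC, CO and CLCF1, with libraries 1 and 2 as filled diamonds, libraries 3 to 6 as open circles and the mean ± SD of 6 as a bar, on axes that start at 0. For Olig1 and Olig2 all 6 CLCF1 libraries lie below all 6 CO libraries, and for Mbp the ranges overlap widely.

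Enzymes of myelin lipid synthesis and of acetate and lipid signalling made up 6 of the genes, of which 1 fell in CLCF1 against CO. Fa2h, which hydroxylates the fatty acids of myelin galactolipids, had a lowest, median and highest CPM of 39.1, 85.3 and 114 in CO and 22.7, 34.7 and 56.6 in CLCF1 libraries. CO library 1 was the only CO library within the CLCF1 range. Fa2h fell by 1.09 ± 0.27 (adjusted p = 0.00953), from 79.8 ± 26.6 to 37.5 ± 13.9 CPM.

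The enzymes that act next to it in galactolipid synthesis did not pass. Ugt8, which makes galactosylceramide, had -0.76 ± 0.31 (adjusted p = 0.101), and Gal3st1, which adds sulfate to it, had -0.45 ± 0.16 (adjusted p = 0.0626). Aspa, which releases acetate from N-acetylaspartate, had -0.04 (adjusted p = 0.914), and Enpp6, a choline phosphodiesterase of newly formed oligodendrocytes, had -0.50 (adjusted p = 0.368). Enpp2, which makes the signalling lipid lysophosphatidic acid and is also strongly made by choroid plexus, had 0.75 ± 0.59 (adjusted p = 0.411). Its values ran from 7.81 to 163 CPM in CO and from 48.5 to 400 in CLCF1 libraries.

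Of the 6 transcription factor genes, 3 fell in CLCF1 against CO. Olig1, a helix-loop-helix factor of the whole lineage, had a lowest, median and highest CPM of 210, 231 and 242 in CO and 140, 172 and 192 in CLCF1 libraries. It fell by 0.44 ± 0.10 (adjusted p = 0.00487), from 229 ± 13.8 to 169 ± 17.0 CPM. Olig2, its neighbour on the same chromosome and the factor that specifies the lineage, had 48.3, 56.8 and 79.0 CPM in CO and 20.1, 33.8 and 45.2 in CLCF1 libraries. It fell by 0.76 ± 0.18 (adjusted p = 0.00821), from 58.5 ± 11.0 to 34.5 ± 8.78 CPM. Olig1 and Olig2 were the 2 members whose 6 CLCF1 libraries all lay below all 6 CO libraries, a pattern that 3.65% of all genes tested showed.

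Myrf, the membrane-bound factor that switches on myelin genes as precursors mature, varied more between libraries. Its lowest, median and highest CPM were 51.5, 77.9 and 122 in CO and 19.2, 36.6 and 84.9 in CLCF1 libraries, where library 6 alone lay within the CO range. Myrf fell by 0.99 ± 0.33 (adjusted p = 0.0453), from 82.2 ± 29.2 to 41.3 ± 24.0 CPM. This call was lost without CO library 2, 5 or 6 or any 1 of CLCF1 libraries 1 to 5, with adjusted p from 0.0547 to 0.0916. Sox10, which keeps cells in the lineage and acts with Myrf, was at 63.5 ± 10.7 CPM in CO and 54.8 ± 12.01 in CLCF1 libraries (-0.21 ± 0.16, adjusted p = 0.379). Nkx6-2, a homeodomain factor of myelinating cells, had -0.32 (adjusted p = 0.300), and Nkx2-2, a homeodomain factor of differentiating precursors, had 0.18 (adjusted p = 0.662).

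Adamts4, a protease of mature oligodendrocytes that cuts aggrecan-type proteoglycans, fell in CLCF1 against CO and Qdpr did not pass. Adamts4 ran from 26.3 through 41.9 to 54.2 CPM in CO and from 20.6 through 24.6 to 33.0 in CLCF1 libraries. CO libraries 1 and 6 lay within the CLCF1 range and the other 4 CO libraries lay above it. It fell by 0.61 ± 0.19 (adjusted p = 0.0318), from 40.1 ± 11.6 to 26.3 ± 5.33 CPM. That call was lost without CO library 2, 3 or 5 or CLCF1 library 2, 3 or 5, with adjusted p from 0.0571 to 0.0683. Qdpr, which regenerates tetrahydrobiopterin, had -0.51 ± 0.21 (adjusted p = 0.0948). Tf, the iron carrier of which Trf is another name, was at 844 ± 232 CPM in CO and 503 ± 179 in CLCF1 libraries (-0.75 ± 0.22, adjusted p = 0.0232).

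None of the 4 genes of precursors and newly formed cells passed in CLCF1 against CO (median -0.21). Pdgfra was at 90.5 ± 33.9 CPM in CO and 85.7 ± 24.3 in CLCF1 libraries (-0.08 ± 0.21, adjusted p = 0.833). Cspg4 was at 23.5 ± 4.46 and 19.1 ± 2.77 CPM (-0.30 ± 0.14, adjusted p = 0.165). Gpr17, a receptor of precursors committed to differentiate, had -0.21 ± 0.27 (adjusted p = 0.633), and Bcas1, a protein of newly myelinating cells, had -0.21 ± 0.27 (adjusted p = 0.637). Whether these genes differed from the mature ones in their response was not tested. Pdgfra is also made by fibroblasts and Cspg4 by pericytes, so neither counts precursors alone.

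**Figure D3:**
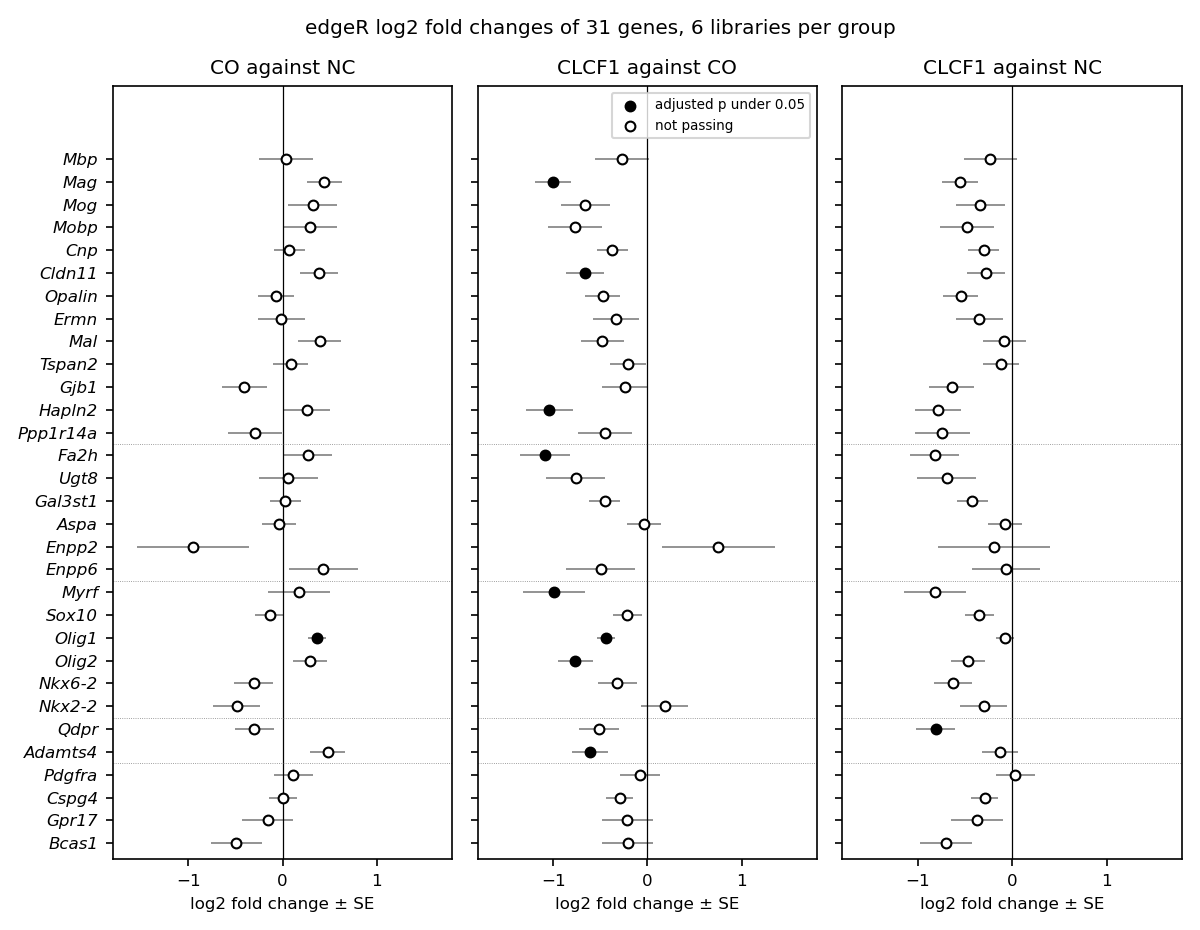
Points are edgeR log2 fold changes of 31 genes in the 3 comparisons, with bars of ± 1 SE and filled points where the adjusted p was under 0.05. In CLCF1 against CO, 8 points are filled and 29 of 31 lie left of zero, whereas CO against NC and CLCF1 against NC have 1 filled point each.

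In CLCF1 against CO, 16 of 31 genes had an unadjusted p under 0.05, all of them lower, beside 32.2% of all genes tested in either direction. With libraries 1 and 2 alone, 0 of 31 passed by edgeR and 1, Olig2, by DESeq2, and 3 (Olig2, Adamts4 and Myrf) had an unadjusted p under 0.05. Among all genes tested, 0.0357% fell by edgeR and 0.416% by DESeq2 in those libraries at an adjusted p of 0.05. An unadjusted p under 0.05 by edgeR was reached there by 817 of 16820 genes in either direction. The log2 fold changes of the 8 genes in libraries 1 and 2 were all negative, from -0.35 for Cldn11 to -1.12 for Myrf. For Mag the value was -0.71, for Olig1 -0.45, for Olig2 -1.05, for Hapln2 -0.88, for Fa2h -0.81 and for Adamts4 -0.78. In the same libraries, members that did not pass had -0.42 for Mbp, -0.58 for Mobp and 0.19 for Pdgfra, the last opposite in sign to its value over all libraries, and the median of the 4 precursor genes was -0.18. Both CLCF1 libraries lay below both CO libraries for 7 of 31 genes, beside 14.0% of all genes. These 7 were Gal3st1, Myrf, Olig1, Olig2, Cspg4, Qdpr and Adamts4. With libraries 3 to 6 alone, Mag, Olig1, Hapln2, Fa2h and Cldn11 passed, and 4.00% of all genes fell.

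**Figure D4:**
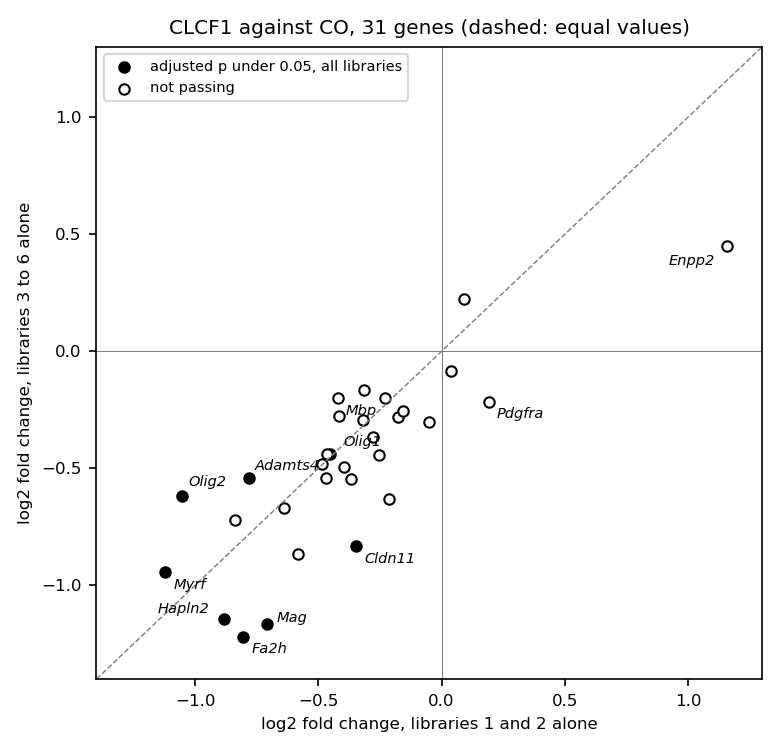
Each of 31 genes is placed by its log2 fold change of CLCF1 against CO in libraries 1 and 2 alone (horizontal) and in libraries 3 to 6 alone (vertical), with the 8 genes that passed in all libraries filled. All 8 filled points lie in the lower left part, below zero on both axes, and the dashed line marks equal values.

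In CO against NC, which asks what inhaled CO changed, 1 of 31 genes rose. Olig1 ran from 151 through 176 to 209 CPM in NC and from 210 through 231 to 242 in CO libraries, so that the ranges did not overlap, as 3.15% of all genes tested also showed in that direction. It rose by 0.36 ± 0.10 (adjusted p = 0.0179), from 178 ± 22.6 to 229 ± 13.8 CPM, and the call held without any 1 of the 18 libraries. Its log2 fold change was 0.31 with libraries 1 and 2 alone, where 0 of 31 members passed, beside 4 higher and 0 lower of 16820 genes tested. With all 18 libraries, 6.32% of all genes rose and 6.40% fell in CO against NC. The members' median log2 fold change was 0.06, with 12 below zero and 19 above, against 0.01 over all genes, and it was -0.08 in libraries 1 and 2 alone.

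No member fell in CO against NC by edgeR or DESeq2, and of the 3 with an unadjusted p under 0.05, beside 29.6% of all genes in either direction, 0 were lower. The smallest p-values after Olig1 belonged to Adamts4 (0.48 ± 0.19, adjusted p = 0.0971), Mag (0.44 ± 0.19, adjusted p = 0.122), Nkx2-2 (-0.49 ± 0.25, adjusted p = 0.206) and Cldn11 (0.38 ± 0.20, adjusted p = 0.213). Mbp had 0.04 ± 0.28 and Cnp 0.07 ± 0.16. Mog had 0.32 ± 0.26 and Mobp 0.29 ± 0.28, and Olig2 had 0.29 ± 0.18, none of which passed. Sox10 had -0.14 ± 0.16 and Myrf 0.17 ± 0.33. Among precursor genes, Pdgfra had 0.11 ± 0.21, Cspg4 0.00 ± 0.14 and Gpr17 -0.16 ± 0.27. Tf had 0.50 ± 0.22 (adjusted p = 0.126).

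Against the NC libraries, the CLCF1 libraries differed in 1 of 31 genes. Qdpr had a lowest, median and highest CPM of 185, 297 and 382 in NC and 129, 151 and 245 in CLCF1 libraries. NC library 2, the lowest of its group, lay within the CLCF1 range. Qdpr fell by 0.81 ± 0.21 (adjusted p = 0.0202), from 300 ± 73.1 to 171 ± 49.0 CPM, without losing the call when any 1 of the 18 libraries was left out. With all 18 libraries, 4.84% of all genes fell and 4.43% rose. The log2 fold change of Qdpr in libraries 1 and 2 alone was -0.71. There 0 of 31 members passed, beside 2 higher and 0 lower of 16820 genes tested. With libraries 3 to 6 alone it was -0.88 and Qdpr did not pass (adjusted p = 0.0715), while Mag did (adjusted p = 0.0422). Of 16663 genes tested in those libraries, 408 fell.

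Most members were lower in CLCF1 than in NC libraries without passing the test. The log2 fold change was below zero for 30 of 31 genes, Pdgfra (0.03 ± 0.21) being the exception, with a median of -0.35 against 0.01 over all genes and of -0.46 in libraries 1 and 2 alone. An unadjusted p under 0.05 was reached by 14 of 31 genes, all lower, beside 25.2% of all genes in either direction. Next after Qdpr came Hapln2 (-0.79 ± 0.25, adjusted p = 0.0511), Fa2h (-0.82 ± 0.26, adjusted p = 0.0557), Nkx6-2 (-0.63 ± 0.21, adjusted p = 0.0600) and Mag (-0.55 ± 0.19, adjusted p = 0.06815). These lay close to the threshold, and DESeq2 called 6 members lower and 0 higher. Among 16564 genes DESeq2 called 1232 lower and 1102 higher, more than the 802 and 734 that edgeR called. The number called also rose to 7 without CLCF1 library 1 and to 5 without NC library 2.

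None of the defining myelin genes passed in CLCF1 against NC by edgeR with all 18 libraries. Mag depended on the setting. It was lower by DESeq2 (adjusted p = 0.0370) and limma-voom (0.0468), and by edgeR without the low-count filter (0.0400) or with libraries 3 to 6 alone (0.0422). It did not pass by edgeR with a block for library number (0.111). Mbp had -0.23 ± 0.28 and Cnp -0.30 ± 0.16, with NC means of 8144 ± 2960 and 821 ± 143 CPM. Mog had -0.34 ± 0.26 and Mobp -0.48 ± 0.28. Olig2 had -0.47 ± 0.18 (adjusted p = 0.103), Myrf -0.82 ± 0.33 (adjusted p = 0.122) and Sox10 -0.35 ± 0.16 (adjusted p = 0.171). Olig1, which rose in CO libraries, had -0.07 ± 0.09 (adjusted p = 0.681), at 178 ± 22.6 CPM in NC and 169 ± 17.0 in CLCF1 libraries. Cspg4 had -0.29 ± 0.14 and Gpr17 -0.37 ± 0.27. The comparisons share libraries pairwise, so their values are set side by side and are not independent of one another.

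A further 48 genes of the lineage were taken as a companion list, of which 47 were found and tested. In CLCF1 against CO, 11 of 47 fell (23.4%, beside 8.34% of all genes) and 1 rose (2.13%, beside 8.63%), with a median of -0.22. In CLCF1 against NC, 11 fell (23.4%, beside 4.84%) and 1 rose (2.13%, beside 4.43%), with a median of -0.29. In CO against NC, 3 fell (6.38%, beside 6.40%) and 3 rose (6.38%, beside 6.32%), shares at the level of all genes, with a median of -0.20. The medians in libraries 1 and 2 alone were -0.23, -0.32 and -0.13. Cntn2, an adhesion protein of the axon segments beside nodes, fell from 55.9 ± 15.9 to 26.4 ± 5.78 CPM in CLCF1 against CO (-1.08 ± 0.19, adjusted p = 0.00147). Among the others that fell were Zfp536, a zinc finger protein (-1.05 ± 0.19, adjusted p = 0.00198), and Plxnb3, a semaphorin receptor (-1.01 ± 0.27, adjusted p = 0.0160). The gene that rose was Erbb3, a neuregulin receptor (0.72 ± 0.22, adjusted p = 0.0280).

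In CO against NC, St18, a zinc finger factor, fell from 12.1 ± 2.32 to 5.96 ± 1.55 CPM (-1.02 ± 0.18, adjusted p = 0.00207). Tcf7l2, a Wnt pathway factor of differentiating oligodendrocytes that thalamic neurons also make, fell from 47.6 ± 24.5 to 7.58 ± 5.54 CPM (-2.65 ± 0.55, adjusted p = 0.00540). Pcdh15, a cadherin of precursors, fell by 1.18 ± 0.32 (adjusted p = 0.0227), and Zfp536 rose by 0.92 ± 0.19 (adjusted p = 0.005725). In CLCF1 against NC the genes that fell included St18 (-1.15 ± 0.18, adjusted p = 0.00109), Tmem63a (-1.13 ± 0.21, adjusted p = 0.00295) and Plxnb3 (-1.45 ± 0.27, adjusted p = 0.00326). The gene that rose there was Smoc1 (1.77 ± 0.53, adjusted p = 0.0423). With libraries 1 and 2 alone, 0 of 47 passed in any of the 3 comparisons. Few of the 16820 genes tested in those libraries passed at all. In CO against NC 4 rose and 0 fell, in CLCF1 against CO 2 rose and 6 fell, and in CLCF1 against NC 2 rose and 0 fell. The log2 fold changes there were -0.98 for Cntn2, -1.02 for Zfp536, -0.88 for Plxnb3 and 0.30 for Erbb3 in CLCF1 against CO. In CO against NC they were -0.71 for St18, -2.11 for Tcf7l2, -0.996 for Pcdh15 and 0.60 for Zfp536. In CLCF1 against NC they were -1.03 for St18, -0.69 for Tmem63a, -1.16 for Plxnb3 and 1.35 for Smoc1.

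Within a group, the members moved together between libraries 1 and 2. In NC, 28 of 31 genes were higher in library 1 than in library 2, by a median of 0.72 on the log2 scale, the exceptions being Pdgfra, Cspg4 and Gpr17. In CO, 29 of 31 were lower in library 1 (median -0.77), with Nkx2-2 and Qdpr as exceptions. In CLCF1, 25 of 31 were higher in library 1 (median 0.56). The medians over all genes were -0.05, 0.01 and -0.03. These differences between libraries of the same group were larger in size than the median difference of -0.45 between CLCF1 and CO.

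Libraries 3 to 6 showed no such common movement. In any of the 6 pairs they form within a group, the larger side held 16 to 19 of 31 genes in NC, 16 to 22 in CO and 17 to 20 in CLCF1. Against the group mean, all 27 genes other than the precursor genes lay above it in NC library 1 and 1 of 27 did in NC library 2. CO library 1 had 5 of 31 genes above its group mean and CO library 2 had 27, while CLCF1 libraries 1 and 2 had 23 and 6. In libraries 3 to 6 of the 3 groups, 9 to 21 of 31 genes lay above the mean.

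**Figure D5:**
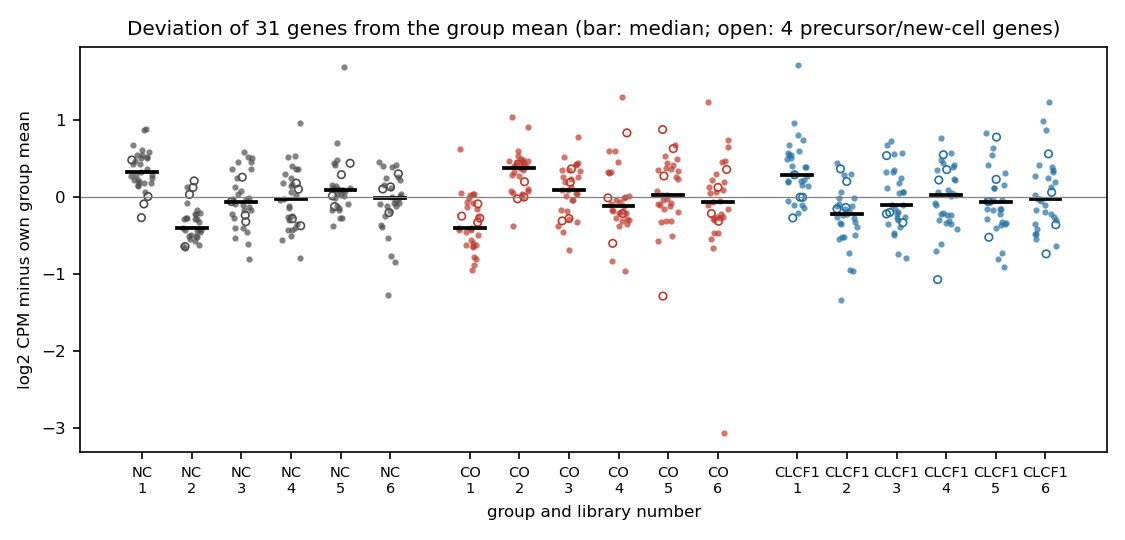
Points are the 31 genes in each library, as log2 CPM minus the mean of the library's own group, with the median as a bar and the 4 precursor genes as open circles. Libraries 1 and 2 of each group are shifted to opposite sides of zero, with medians of 0.32 and -0.40 in NC, -0.40 and 0.37 in CO and 0.28 and -0.23 in CLCF1.

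Markers of other cell types also differed between the groups. The 8 neuronal markers summed to 4878 to 5437 CPM in NC, 6080 to 6737 in CO and 5303 to 6517 in CLCF1 libraries, and 2 of 8 fell in CLCF1 against CO. The 7 choroid plexus markers found summed to 4.95 to 172 CPM in NC, 0.882 to 42.0 in CO and 58.6 to 6038 in CLCF1 libraries, and 6 of 7 rose in CLCF1 against CO. Enpp2 was highest of its group in CLCF1 library 1 at 400 CPM, where that sum was highest as well, and highest in NC in library 5 at 430 CPM, where the sum was 22.7.

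The 8 fibroblast and meningeal markers summed to 725 to 961 CPM in NC, 180 to 814 in CO and 510 to 847 in CLCF1 libraries, and 2 of 8 rose in CLCF1 against CO. The 8 astrocyte markers summed to 4638 to 5997, 3842 to 7193 and 4460 to 5354 CPM, with 0 of 8 passing in CLCF1 against CO. Striatal markers (6 of 6 found) summed to 208 to 1376 CPM in NC, 1141 to 2528 in CO and 263 to 1436 in CLCF1. Libraries 1 and 2 had sums of 208 and 1376 CPM in NC, 1250 and 1213 in CO, and 1247 and 263 in CLCF1. Of the 6 striatal genes, 1 fell in CLCF1 against CO, and all 6 had log2 fold changes below zero (median -1.02). The 8 Schwann cell markers, among which Ncmap was at 0 in all libraries, summed to 114 to 131, 115 to 151 and 106 to 137 CPM, with 2 higher and 1 lower in CLCF1 against CO. Among 8 markers of hindbrain and spinal cord, 7 Hox genes were at 0 in all libraries, and the other gene, Slc6a5, fell in CLCF1 against CO (log2 fold change -1.24). Cldn5, a marker of endothelium, was also at 0 throughout. Pericyte and smooth muscle markers summed to 237 to 306 CPM in NC, 90.7 to 198 in CO and 127 to 207 in CLCF1 libraries, with 1 of 8 higher in CLCF1 against CO. Microglial markers summed to 289 to 398, 267 to 386 and 341 to 450 CPM, and those of endothelium to 122 to 194, 68.0 to 159 and 119 to 196 CPM, with 0 passing in that comparison. Ependymal markers summed to 37.4 to 61.4, 22.3 to 38.5 and 46.1 to 69.9 CPM, with 3 of 5 higher, and cortical markers to 819 to 1060, 1167 to 1618 and 897 to 1382 CPM, with 0 of 6 passing. The part of these differences, and of the brain region sampled, in the values of the oligodendrocyte genes was not tested.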

How the data were processed

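RNA was taken from rat brain and made into libraries with a SMARTER mRNA-Seq kit from total RNA, per the labels' protocols, which do not state strandedness, so overlapping and antisense genes cannot be separated. The authors deposited raw counts, without normalization, in 1 table that covers all 18 libraries (3 groups of 6, grouped by sample title) and also lists gene lengths. No aligner, counter or rat genome build is given in the sources used here. The submitters' processing notes name only mouse builds although the gene identifiers are of rat, so coordinates are printed as deposited, without a build. The 2328 unnamed loci held 1.21% to 1.62% of counts per library and stayed in library sizes.

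Counts were fitted with edgeR 4.0.16 in R 4.3.3 (TMM scaling, filterByExpr defaults, which removed 18292 of 34873 genes, and 1 robust quasi-likelihood fit over 18 libraries). P-values were adjusted by Benjamini-Hochberg over all 16581 genes tested, at 0.05. Standard errors of log2 fold changes are the fold change divided by the square root of F. CPM were TMM-scaled without a pseudocount, and deviations used log2 CPM with a prior count of 2. Library totals of 15.1 to 20.3 M limit precision mainly for the lowest genes. The tests were checked on simulated counts, drawn as independent libraries with 1 fixed spread for all genes. That check does not cover libraries that depend on one another. Promoter windows came from RefSeq (GRCr8).

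The members, the companion and marker lists and the comparisons were chosen with earlier results of these data known. Every member is named. Those passing, the 4 smallest p-values among those not passing in each comparison and 11 defining genes (Mbp, Mog, Mag, Cnp, Mobp, Olig2, Sox10, Myrf, Pdgfra, Cspg4, Gpr17) are given with values, and of the companion list the 4 smallest p-values among genes passing, of which 1 gene is not reported here. Erbb3 and Smoc1 were named after their values were seen. Microglial, endothelial, pericyte, ependymal and cortical marker lists were also summed. As alternatives, the fit was repeated with a block for library number, with scaling by library size or by the size factors of DESeq2, without the filter or with a stricter one (a mean CPM of 1 and 10 counts in 6 libraries), with DESeq2 1.42.0 or quality-weighted limma-voom (limma 3.58.1), on the compared groups only, on libraries 1 and 2 or 3 to 6 only, without each library in turn, and with a fold threshold of 1 on the log2 scale. DESeq2 on libraries 1 and 2 alone was chosen after seeing the data.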

Additional observations from a re-analysis of the deposited data

Results flagged for a closer look

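Among 93 sets of 6 values (31 genes in 3 groups), 6 held a library far from the other 5 by Dixon's criterion, which compares the gap to the nearest library with the whole range against 0.625. Chance gives about 1 such set in 20. In CLCF1, Mag was highest in library 1 at 212 CPM, with the others between 108 and 141 (gap over range 0.687), and Enpp2 was highest in library 1 at 400 CPM, with the others between 48.5 and 135 (0.755). In NC, Cnp was highest in library 1 at 1093 CPM, with the others between 662 and 806 (0.666), and Enpp6 was highest in library 1 at 13.1 CPM, with the others between 4.95 and 7.24 (0.720). In CO, Olig2 was highest in library 2 at 79.0 CPM, with the others between 48.3 and 59.5 (0.635), and Pdgfra was highest in library 5 at 158 CPM, with the others between 68.7 and 85.7 (0.811). Of these 6 values, 5 came from libraries 1 or 2, those in which most members lay above their group mean.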

How the results depend on the processing

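The 8 members lower in CLCF1 against CO became 5 with libraries 3 to 6 alone, 2 with an absolute log2 fold change of at least 1, 0 with libraries 1 and 2 alone and 1 with DESeq2 on those. They were 6 to 10 under the other settings. Leaving out 1 library gave 5 to 10, with 5 without CO library 2 or CLCF1 library 2. Olig1, the 1 member higher in CO against NC, became 0 with libraries 1 and 2 alone by edgeR or DESeq2, with libraries 3 to 6 alone and with the fold threshold, and leaving out 1 library gave 1 to 1. The 1 member lower in CLCF1 against NC became 2 with only the groups compared and 4 with library size as scaling. It became 5 with limma-voom, 6 with no filter and 6 with DESeq2. It became 0 with the fold threshold and with libraries 1 and 2 alone by either tool. With libraries 3 to 6 alone the count was 1, but the member was Mag and not Qdpr. Among all genes, 802 fell in the main fit, 864 with library size as scaling and 1126 with limma-voom. With DESeq2 1232 genes fell, and with no filter 2294 of 22634 fell. Leaving out 1 library gave 1 to 7 members lower, the most without CLCF1 library 1. It gave 5 without NC library 2, 3 without CO library 1, 4 or 5, and 2 without NC library 3 or 6, CO library 2 or CLCF1 library 3, 5 or 6.

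Companion genes called became 0 in all 3 comparisons with libraries 1 and 2 alone by edgeR or DESeq2. In those libraries DESeq2 called few genes at all, 38 higher and 15 lower in CO against NC. It called 34 and 70 in CLCF1 against CO and 25 and 24 in CLCF1 against NC. With libraries 3 to 6 alone, the 6 in CO against NC became 3, the 12 in CLCF1 against CO became 4 and the 12 in CLCF1 against NC became 7. Calls among all genes dropped too. In CO against NC 1048 higher and 1062 lower became 367 and 551. In CLCF1 against CO 1431 and 1383 became 770 and 666, and in CLCF1 against NC 734 and 802 became 328 and 408. The fold threshold gave 5 companion genes in CLCF1 against CO, where it left 925 of all genes higher and 543 lower. Leaving out 1 library gave 4 to 7, 8 to 15 and 7 to 15, the lowest of the last without CLCF1 library 2. The members' medians kept their sign except in CO against NC, which was -0.08 with libraries 1 and 2 alone and -0.07 with DESeq2 on those. Leaving out 1 library gave 0.01 to 0.15 in CO against NC, -0.49 to -0.35 in CLCF1 against CO and -0.47 to -0.31 in CLCF1 against NC. Over the 93 values of single genes, 60 alternatives ended a call, 61 added one and 0 reversed a called gene. The cause of these changes was not tested.

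Same-numbered libraries of different groups correlated at -0.03 to 0.15, with 1 of 18 pairs over 0.1 and 5 of 18 best with their own number. These 5 were libraries 1, 2 and 3 of NC with CO and libraries 1 and 2 of CO with CLCF1, the last at 0.15. The labels do not say that a number marks a shared animal, litter or day, so the numbers were not taken as a pairing. With the library number as a replicate block, 2 members were lower in CLCF1 against NC, 8 in CLCF1 against CO and 1 higher in CO against NC. In CLCF1 against CO the block ended the calls of Myrf (adjusted p = 0.0536) and Adamts4 (0.0539) and added Gal3st1 (0.0472) and Qdpr (0.0469), and in CLCF1 against NC it added Nkx6-2 (0.0450). At these depths the lowest members, at a few CPM, were the least precisely measured.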
